A study of Mus musculus with 6 samples.

Results

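The genes of the pyruvate dehydrogenase complex and of the enzymes that switch it off and on were followed in the livers of socially isolated mice. The 10 genes are the kinases Pdk1, Pdk2, Pdk3 and Pdk4, the phosphatases Pdp1 and Pdp2, and the complex subunits Pdha1, Pdhb, Dlat and Pdhx. Every probe set annotated to exactly 1 of these symbols was taken, which gave 18 probe sets of the 45101 on the array. The genes were chosen by their place in the pathway with the signals of Pdk4 in isolated and control livers already known. The differences of these 10 genes between the groups are therefore given as a description, with no p of their own, and the count of them past the threshold of the fit across all probe sets stands only beside that of the whole array.

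The 3 isolated samples came from male BALB/c mice kept 1 per cage for 30 days with less bedding and without social contact, and the 3 control samples from male BALB/c mice without isolation. All mice were 4 weeks old on arrival, shared cages of 5 through 10 days of acclimatisation, and are labelled 10 weeks old. No allele or drug is named for either group, and diet and water were free in both. Each sample was hybridised to 1 Affymetrix array, and the unit throughout is the MAS5 signal, a linear brightness per probe set. The labels number the samples but do not tie each to a separate mouse, so the spread between arrays may be partly technical.

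The complex sits in the mitochondrial matrix and turns pyruvate into acetyl-CoA, which commits carbon from sugar to oxidation or fat synthesis. Its kinases phosphorylate the E1 alpha subunit and switch the complex off, and its phosphatases remove that phosphate. In liver, Pdk4 transcript is known to be high in fasting and low after feeding or insulin, and Pdk2 is known as the widely expressed kinase of the family. Hour of collection and time since the last meal are not stated in the labels.

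The promoter of the kinase with the large difference is shown beside those of a sister kinase and the tested phosphatase. The groups overlapped for the sister kinase and for the phosphatase. The windows run from 250 bases before to 50 bases after the start site of transcription, 5′ to 3′ on the gene's strand, from RefSeq on GRCm38.p6. Pdk4 lies at chr6:5496229-5496528 on the minus strand, Pdk2 (the first of its 2 windows) at chr11:95041322-95041621 on the minus strand, and Pdp2 at chr8:104591222-104591521 on the plus strand. Capitals mark matches to any of 6 short motifs searched on both strands.
Pdk4: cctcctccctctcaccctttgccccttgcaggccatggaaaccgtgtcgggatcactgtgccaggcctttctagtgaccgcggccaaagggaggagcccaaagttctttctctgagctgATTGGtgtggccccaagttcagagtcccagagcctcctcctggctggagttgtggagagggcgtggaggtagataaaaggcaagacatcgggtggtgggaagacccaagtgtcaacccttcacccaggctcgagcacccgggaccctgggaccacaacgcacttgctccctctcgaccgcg
Pdk2: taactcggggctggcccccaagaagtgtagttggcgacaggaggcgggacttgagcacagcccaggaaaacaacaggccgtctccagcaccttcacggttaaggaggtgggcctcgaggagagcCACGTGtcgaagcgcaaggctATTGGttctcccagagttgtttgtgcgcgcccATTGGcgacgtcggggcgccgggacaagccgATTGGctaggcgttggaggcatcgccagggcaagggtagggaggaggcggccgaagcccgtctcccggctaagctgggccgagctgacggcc
Pdp2: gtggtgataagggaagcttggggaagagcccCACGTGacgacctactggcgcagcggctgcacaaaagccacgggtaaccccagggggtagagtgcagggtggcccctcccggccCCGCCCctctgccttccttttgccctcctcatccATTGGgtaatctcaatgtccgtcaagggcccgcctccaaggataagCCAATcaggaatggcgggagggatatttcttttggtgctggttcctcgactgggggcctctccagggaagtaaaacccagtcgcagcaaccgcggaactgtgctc
The motifs were GTAAACA (forkhead core), AAGGTCA (extended nuclear receptor half-site), AGAACA (glucocorticoid receptor half-site), CACGTG (E-box), GGGCGG (GC box) and CCAAT (known as the CAAT box), the last added after the sequences were seen.

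In the Pdk4 window the 1 match was a CAAT box on the opposite strand. The Pdk2 window held 1 E-box and 3 CAAT boxes, and the Pdp2 window held 1 E-box, 1 GC box and 2 CAAT boxes. Over the 11 windows found for 9 of the 10 genes, 6 held a CAAT box, 6 a GC box, 2 an E-box and 1 the glucocorticoid receptor half-site. None held the forkhead core or the extended nuclear receptor half-site. Among all 32851 windows of the same length, 37.4% held a CAAT box, 35.7% a GC box, 7.15% an E-box, 19.0% the glucocorticoid receptor half-site, 3.65% the forkhead core and 4.72% the extended nuclear receptor half-site. The Pdk4 window had 12 CpG dinucleotides, the Pdp2 window 14, the first Pdk2 window 25 and the second Pdk2 window 13, against a median of 7 over all windows. A match is a description of letters, and the lack of one covers only these 300 bases.

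Fold changes were taken on the log2(signal + 2) scale, which understates the change of dim probe sets. Of the 18 probe sets, 14 were bright enough for the fit, meaning they lay in the upper 50% of probe sets by mean log2 signal, with a floor near a signal of 18.0. The other 4 were the Pdk3 probe set, both Pdp1 probe sets and 1 of 4 Pdk1 probe sets. By limma over all 22519 tested probe sets, 1 of the 14 lay below an adjusted p of 0.05, lower in isolated livers, and 0 lay there in the other direction. Of all those tested, 1.63% were past that threshold in either direction and 0.857% were past it as lower. The 1 was Pdk4, whose signals were known when the genes were chosen, so nothing is read from this count. The median log2 difference was 0.11 over the 14 and 0.035 over all tested probe sets.

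**Figure D1:**
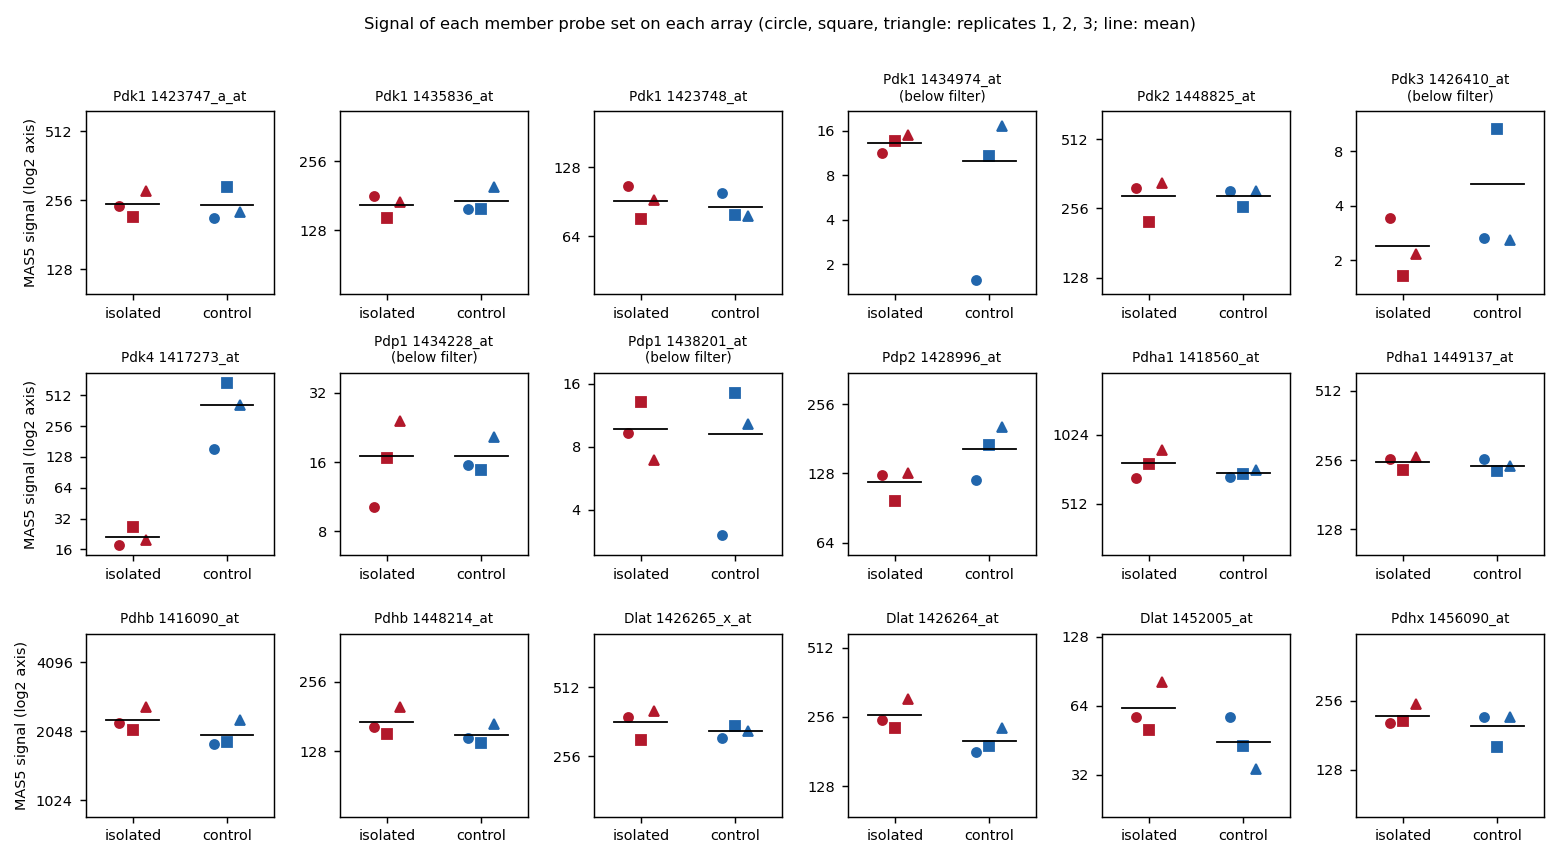
MAS5 signal on a log2 axis for each of the 18 probe sets on each of the 3 isolated and 3 control arrays, with the group mean as a line; axes differ between panels. Pdk4 is the panel in which the groups stand far apart, with isolated signals of 17.5 to 26.6 and control signals of 153 to 679.

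Pdk4, the inhibitory kinase induced in fasting, read 17.5, 26.6 and 19.9 in isolated replicates 1, 2 and 3. In control replicates 1, 2 and 3 it read 153, 679 and 408. The lowest control lay well above the highest isolated sample, so the groups did not overlap. The mean was 21.3 ± 4.71 in isolated livers and 413 ± 263 in control livers (SD, n = 3 each). The log2 difference was -3.93 ± 0.35 (SE), or 15.3-fold lower in isolated livers, and by size it was number 2 among the 22519 tested probe sets. The isolated signals lay around the 18.0 of the filter, and no detection calls were used here, so whether Pdk4 was above background on those arrays is not known and the fold may be only a lower limit. Groups were apart for 15.4% of all tested probe sets, with isolated livers below for 5.79% and above for 9.62%.

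The controls differed widely among themselves. The highest control signal was 4.43 times the lowest, against 1.52 times among isolated livers. Of all tested probe sets, 0.919% had a larger SD of log2 signal among the controls than Pdk4. With 1 control array left out the difference moved, to 22.9-fold lower without control replicate 1 and 11.0-fold lower without control replicate 2. With a larger pseudocount of 16 it was 9.91-fold lower. In a limma fit with a robust intensity trend, which lets highly variable probe sets keep more of their own variance, the SE was 0.60 and the count of member probe sets past the threshold was 0.

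Pdk4 is also expressed in fat and muscle, so the markers of those tissues were read on the same arrays. Adipoq, an adipocyte hormone, read 3.78, 59.5 and 54.8 in isolated replicates 1, 2 and 3, against 4.38, 8.48 and 15.6 in control replicates 1, 2 and 3. Retn, another adipocyte hormone, read 2.65 in isolated replicate 1 and up to 42.2 in the other isolated samples, against 2.39 to 3.88 in control livers. Adipoq and Retn were thus high on isolated replicates 2 and 3 and low on the other 4 arrays. Fabp4, a fatty acid carrier of adipocytes, read 203, 300 and 404 in isolated replicates 1, 2 and 3, against 117, 202 and 157 in control replicates 1, 2 and 3. Its groups were narrowly apart, with a log2 difference of 0.90 ± 0.23 (SE) and a limma adjusted p of 0.0578. Summed over the 5 adipocyte markers other than the liver-abundant Car3, the signal ran from 231 to 523 in isolated livers and from 147 to 248 in control livers, and Fabp4 made up most of each sum. With Car3, which made up most of it, the sum overlapped, from 11142 to 12286 in isolated and from 11397 to 12417 in control livers. The log2 difference of Car3 was -0.02 ± 0.10 (SE). That of Cidec, another tested adipocyte marker, was -0.30 ± 0.36 (SE), and its groups overlapped. Of 6 adipocyte markers with a probe set 3 were tested and 0 called, and Lep, a defining one, was near 0 with means of 1.89 in isolated and 2.07 in control livers. The 6 skeletal muscle markers were all below the filter, with sums from 34.3 to 70.7 in isolated livers and from 43.6 to 91.3 in control livers. Without isolated replicates 2 and 3, on which Adipoq was highest, the Pdk4 difference was 18.0-fold lower, and that value rests on 1 isolated array. The part of adipocyte RNA in the Pdk4 difference was not tested. In whole liver, fewer cells of a type and less RNA per cell cannot be told apart.

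Pdk2, the kinase found in most tissues, read 316, 223 and 330 in isolated replicates 1, 2 and 3. In control replicates 1, 2 and 3 it read 305, 261 and 306. The groups overlapped, with isolated replicate 2 the lowest and isolated replicate 3 the highest of all 6. The log2 difference was -0.02 ± 0.18 (SE), and its sign changed under 6 alternative settings, among them median centring and each of 3 single arrays left out.

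Pdk1, a kinase known as a target of hypoxia signalling, had 3 tested probe sets. Its brightest, 1423747_a_at, read 243, 216 and 281 in isolated replicates 1, 2 and 3, and 214, 292 and 228 in control replicates 1, 2 and 3. The groups overlapped fully. The log2 differences of the 3 probe sets were 0.02 ± 0.18, -0.05 ± 0.19 and 0.09 ± 0.21 (SE), so they lay on both sides of 0 and each within 1 SE of it. The fourth, 1434974_at, was dim, at 11.3 to 15.1 in isolated and 1.57 to 17.4 in control livers.

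Pdk3, a kinase described mainly outside the liver, was at the bottom of the scale. Its 1 probe set read 3.41, 1.62 and 2.16 in isolated replicates 1, 2 and 3, and 2.64, 10.7 and 2.59 in control replicates 1, 2 and 3. Control replicate 2 stood above the other 5. At this brightness no difference can be read from MAS5 signals.

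Among the kinases, then, Pdk4 was apart between the groups, and the 4 other tested kinase probe sets had log2 differences from -0.05 to 0.09. Pdk4 is represented by 1 probe set, 1417273_at, so no second probe set was at hand to compare with it.

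Pdp2, a phosphatase that reactivates the complex, read 127, 97.2 and 129 in isolated replicates 1, 2 and 3. In control replicates 1, 2 and 3 it read 119, 170 and 203. The groups overlapped because control replicate 1 lay below isolated replicates 1 and 3, while the other 2 controls lay above all isolated samples. The log2 difference was -0.45 ± 0.21 (SE), and it stayed below 0 with each array left out, from -0.66 to -0.28. Control replicate 1 was the lowest control for both Pdp2 and Pdk4.

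Pdp1, the calcium-stimulated phosphatase, had both probe sets below the filter. Probe set 1434228_at read 10.2, 16.6 and 24.2 in isolated replicates 1, 2 and 3, and 15.6, 14.7 and 20.6 in control replicates 1, 2 and 3. The other ran from 6.92 to 13.0 in isolated and from 3.03 to 14.4 in control livers. Both overlapped between the groups.

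**Figure D2:**
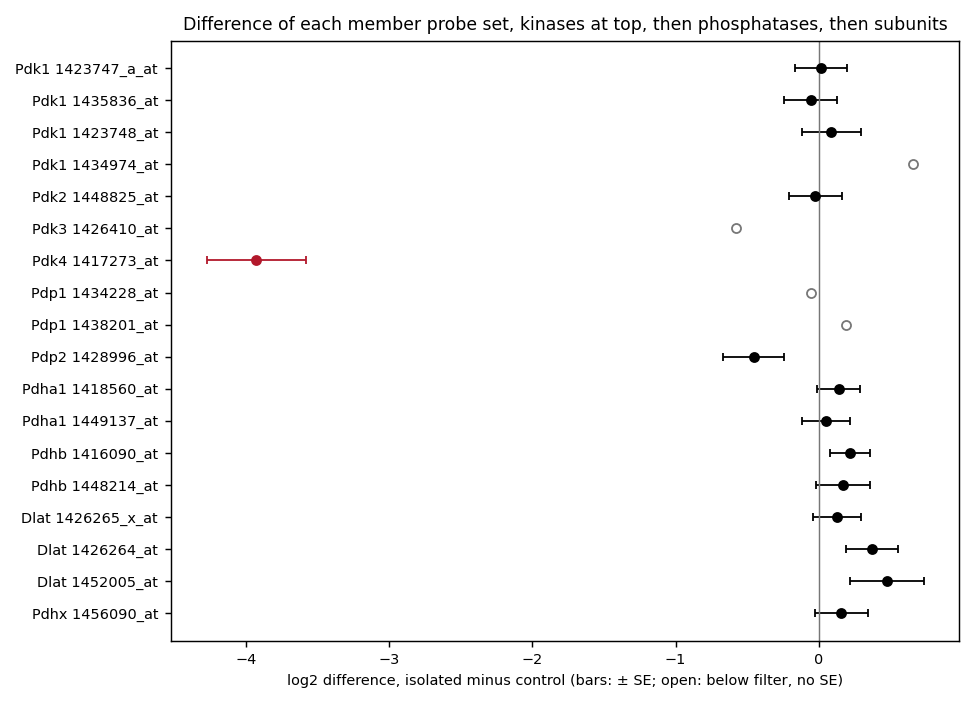
Log2 difference, isolated minus control, of all 18 probe sets, with ± SE for the 14 tested and open symbols for the 4 below the filter. Pdk4 lies at -3.93, and the other 13 tested probe sets lie between -0.45 and 0.48.

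The subunits had slightly higher mean signals in isolated livers, and the groups overlapped for each of their 8 probe sets. Their log2 differences were all above 0, from 0.05 to 0.48, with a median of 0.16, and 0 of the 8 were called. The median was 0.035 over all tested probe sets and 0.11 over the tested genes around acetyl-CoA use, described below. Dlat, the E2 acetyltransferase that forms the core of the complex, had both the largest of these differences and, by its brightest probe set, one of the smaller ones.

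Dlat probe set 1426264_at read 248, 229 and 306 in isolated replicates 1, 2 and 3, and 181, 191 and 230 in control replicates 1, 2 and 3. Only isolated replicate 2 and control replicate 3, which were nearly equal, kept the groups from separating. Its log2 difference was 0.37 ± 0.18 (SE). Probe set 1452005_at, the dimmest of Dlat, read 56.9, 50.1 and 81.4 in isolated replicates 1, 2 and 3, and 57.3, 42.9 and 33.8 in control replicates 1, 2 and 3, for a log2 difference of 0.48 ± 0.26 (SE). Probe set 1426265_x_at, whose suffix marks probes that may also bind other transcripts, had a log2 difference of 0.13 ± 0.17 (SE).

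Pdhb, the E1 beta subunit, read 2228, 2069.5 and 2606 in isolated replicates 1, 2 and 3 by its brighter probe set. In control replicates 1, 2 and 3 it read 1807, 1835 and 2289. Control replicate 3 lay above isolated replicates 1 and 2, so the groups overlapped. The log2 difference was 0.22 ± 0.14 (SE), and that of the dimmer probe set was 0.17 ± 0.19 (SE).

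Pdha1, the E1 alpha subunit that carries the phosphorylation sites, read 662, 767 and 880 in isolated replicates 1, 2 and 3, and 672, 691 and 719 in control replicates 1, 2 and 3. The isolated samples spanned the whole control range. The log2 difference was 0.14 ± 0.15 (SE), and 0.05 ± 0.17 (SE) by its second probe set.

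Pdhx, the E3-binding protein that ties dihydrolipoyl dehydrogenase to the core, read 205, 209 and 249 in isolated replicates 1, 2 and 3, and 217, 161 and 217 in control replicates 1, 2 and 3. Isolated replicates 1 and 2 lay inside the control range. The log2 difference was 0.16 ± 0.19 (SE).

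All 8 subunit probe sets were highest on isolated replicate 3. That array was bright in general: 35.0% of all tested probe sets were highest on it, and its 2% trimmed mean was 111 against 92.5 to 108 on the other 5. Control replicate 3 was about as bright, with 27.5% of tested probe sets highest on it and a median signal of 22.1 against 21.9 on isolated replicate 3. The median deviation of the subunits from the control mean was 0.15, 0.08 and 0.37 log2 units on isolated replicates 1, 2 and 3. With arrays centred on their medians, 4 of the 8 were highest on isolated replicate 3, and the deviations were 0.23, 0.23 and 0.29. With quantile normalization, 4 of 8 were highest there and the deviations were 0.12, 0.17 and 0.17. The subunit median was 0.22 with centring and 0.11 with quantile normalization, where 7 of 8 stayed above 0 and the second Pdha1 probe set read -0.01. On the deposited scale with isolated replicate 3 left out, the log2 differences of the 8 ran from 0.01 to 0.28.

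**Figure D3:**
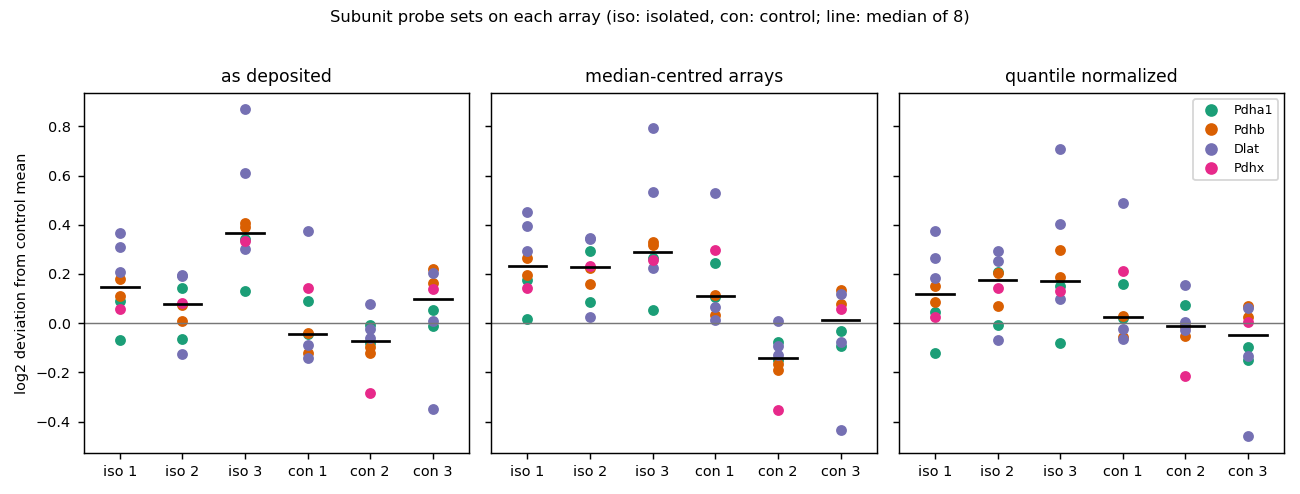
Deviation of each subunit probe set from its control mean, in log2 units, on each isolated and control array under 3 scalings, with the median of the 8 as a line. As deposited, isolated replicate 3 stands out with a median of 0.37, while under quantile normalization the 3 isolated medians lie between 0.12 and 0.17.

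Genes around the complex were taken as 5 lists with 76 genes, of which 64 had a tested probe set, 7 lay below the filter and 5 had no probe set with a single symbol. By the brightest tested probe set of each gene, 1 rose and 3 fell in isolated livers, or 6.25% of the 64, where 1.75% of all 10986 genes were called, 0.901% as higher and 0.847% as lower. These lists were chosen with earlier results of these arrays known. At an unadjusted limma p under 0.05 there were 10 of the 64, 4 higher and 6 lower, where 12.3% of all genes were under it, 7.94% as higher and 4.4% as lower. The groups were apart for 8 of the 64, or 12.5%, against 16% of all tested genes.

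By limma, 0 of the 7 tested partners of the complex passed, and 0 had an unadjusted p under 0.05. Dld, the shared E3 dehydrogenase, read 735, 804 and 956 in isolated replicates 1, 2 and 3, and 781, 647 and 778 in control replicates 1, 2 and 3, with a limma adjusted p of 0.779. Mpc1, a subunit of the carrier that brings pyruvate into mitochondria, had a log2 difference of 0.08 ± 0.12 (SE). The median over the list was 0.08.

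By limma, 0 of 12 tested genes that supply pyruvate or use it otherwise passed, and 1, Pck1, had an unadjusted p under 0.05. Pck1, the enzyme that draws oxaloacetate into gluconeogenesis, read 3895, 4497 and 6136 in isolated replicates 1, 2 and 3, and 6459, 5819 and 6678 in control replicates 1, 2 and 3. Isolated replicates 1 and 2 lay below all controls and isolated replicate 3 did not, and the limma adjusted p was 0.204. Pck1 was called lower without isolated replicate 3. Ldha, a lactate dehydrogenase subunit, had a log2 difference of -0.25 ± 0.13 (SE), and the list median was -0.03.

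The branched-chain and other 2-oxo acid dehydrogenases, which are built like the pyruvate complex, had 0 of 8 tested genes called by limma, 0 with an unadjusted p under 0.05, and a median log2 difference of 0.001. Bckdhb, a subunit of the branched-chain complex, had a log2 difference of 0.19 ± 0.14 (SE), and Dhtkd1 of -0.09 ± 0.15 (SE).

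The list around acetyl-CoA use held enzymes that make or use acetyl-CoA and many citric acid cycle enzymes that act on other substrates. Its genes are called acetyl-CoA genes below. In this list 1 of 21 rose, 0 fell and 20 did not pass, with a median log2 difference of 0.11. By limma, 3 of the 21, Idh3a, Cs and Acly, had an unadjusted p under 0.05, all higher. Idh3a, the catalytic subunit of the NAD-dependent isocitrate dehydrogenase of the citric acid cycle, read 851, 1020.1 and 1128 in isolated replicates 1, 2 and 3. In control replicates 1, 2 and 3 it read 593, 544 and 607. Every isolated sample lay above every control. It rose 1.71-fold, with a limma adjusted p of 0.00925. Idh3a has 4 single-symbol probe sets, and with each tested probe set counted this brightest 1 was the only one called. The call ended without the intensity trend (limma adjusted p 0.184) and without isolated replicates 2 and 3 together (limma adjusted p 0.394). Its partner subunits Idh3b and Idh3g, named after their values were seen, had log2 differences of 0.09 ± 0.14 and 0.23 ± 0.16 (SE). Mdh1 and Aco1, the brightest of the list that did not pass, had 0.10 ± 0.12 and -0.05 ± 0.13 (SE). Cs, the citrate synthase that takes up acetyl-CoA, was singled out after its values were seen, as its groups were apart without a call. It read 502, 542 and 722 in isolated replicates 1, 2 and 3, and 329, 449 and 480 in control replicates 1, 2 and 3, with a limma adjusted p of 0.254.

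Among transcription factors and coregulators known to act on kinase genes, 3 of 16 fell, 0 rose and 13 did not pass, with a median log2 difference of -0.10. By limma, 6 of the 16 had an unadjusted p under 0.05, 5 lower and 1, Esrra, higher. Ppara, the fatty acid sensor known to induce Pdk4 in fasting, read 839, 749 and 1167 in isolated replicates 1, 2 and 3. In control replicates 1, 2 and 3 it read 1411, 1396 and 1768. Every isolated sample lay below every control. It fell 1.68-fold, with a limma adjusted p of 0.022, and a second probe set, named after its values were seen, fell by 0.95 on the log2 scale with a limma adjusted p of 0.00168. The call on the brightest probe set ended without a filter (0.0931), without the intensity trend (0.264), without isolated replicate 1 (0.0593), without isolated replicate 2 (0.0659) and without control replicate 3 (0.126), all limma adjusted p.

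Cebpb, a factor induced by glucocorticoids and glucagon in liver, read 421, 384 and 679 in isolated replicates 1, 2 and 3, and 1067, 1037 and 1211 in control replicates 1, 2 and 3. It fell 2.30-fold, with groups apart and a limma adjusted p of 0.00084. Nr0b2, a corepressor of nuclear receptors, read 286, 445 and 605 in isolated replicates 1, 2 and 3, and 1189.8, 1282 and 1035.5 in control replicates 1, 2 and 3. It fell 2.73-fold, with groups apart and a limma adjusted p of 0.000292. Without the intensity trend, neither Cebpb (0.124) nor Nr0b2 (0.106) passed by limma adjusted p.

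The other 13 tested genes of this list did not pass by their brightest probe set. Lpin1, a phosphatidate phosphatase that also acts as a coactivator in liver, had a limma adjusted p of 0.244 by that probe set. Its second probe set, named after its values were seen, read 166, 235 and 431 in isolated replicates 1, 2 and 3, and 525, 537 and 640 in control replicates 1, 2 and 3. It was 2.20-fold lower with groups apart and a limma adjusted p of 0.0153. Hnf4a and Nr3c1, the glucocorticoid receptor, had log2 differences of 0.04 ± 0.14 and 0.03 ± 0.16 (SE). Ppargc1a and Esrra were singled out after their values were seen, because their groups were apart in opposite directions. Ppargc1a, a coactivator of fasting genes, read 49.8, 51.3 and 43.4 in isolated replicates 1, 2 and 3, and 69.0, 76.2 and 62.0 in control replicates 1, 2 and 3, with a limma adjusted p of 0.375. Esrra, an orphan nuclear receptor that partners with it, read 179, 189 and 224 in isolated replicates 1, 2 and 3, and 127, 121 and 154 in control replicates 1, 2 and 3, with a limma adjusted p of 0.186.

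**Figure D4:**
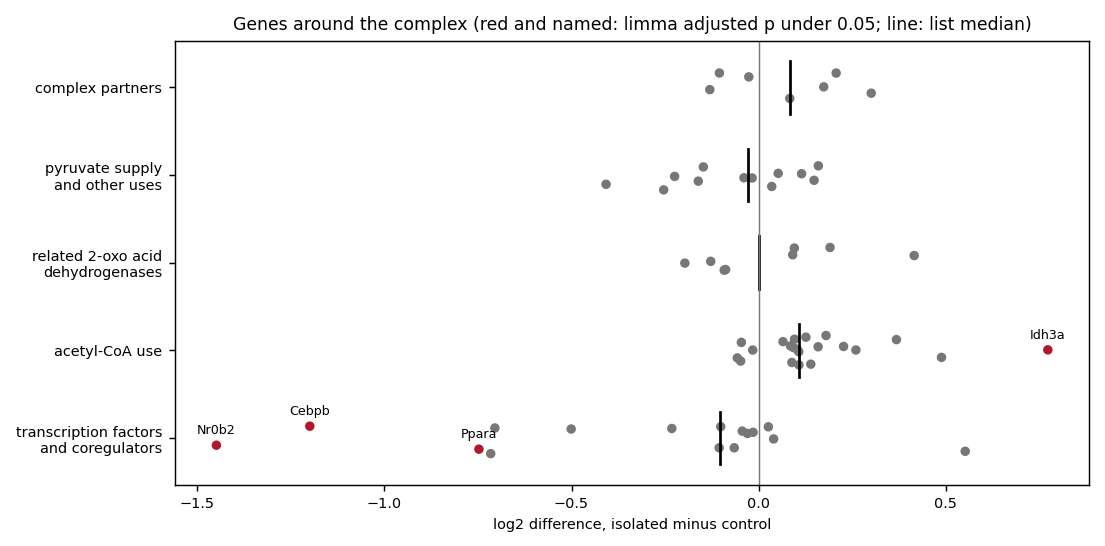
Log2 difference, isolated minus control, of the 64 tested genes in 5 lists around the complex, 1 point per gene, with the list median as a line and called genes in red. Idh3a lies at 0.77, and Ppara, Cebpb and Nr0b2 at -0.75, -1.20 and -1.45, while the other 60 did not pass.

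The genes whose log2 signals ran most like Pdk4 over the 6 arrays were Il1b, Etfbkmt, Chaserr, Acot1 and Ten1, with Pearson r of 0.980 to 0.999. These are the highest of 10986 genes over 6 arrays in 2 groups, so a shared group difference sets much of r. With group means taken off, r was 0.989 for Il1b, 0.938 for Etfbkmt, 0.880 for Chaserr, 0.824 for Acot1 and 0.851 for Ten1. That second r comes from the same 6 arrays on which the genes were picked, so the choice raises it too. Il1b, a cytokine gene, read 48.1, 51.5 and 49.3 in isolated replicates 1, 2 and 3, and 72.9, 99.6 and 86.0 in control replicates 1, 2 and 3, in the same order within each group as Pdk4. Etfbkmt, a mitochondrial lysine methyltransferase gene, read 1114, 1318 and 1283 in isolated replicates 1, 2 and 3, and 1948, 2717 and 2599.7 in control replicates 1, 2 and 3, and was called lower. Acot1, an acyl-CoA thioesterase, read 351, 493 and 334 in isolated replicates 1, 2 and 3, and 917, 1515 and 1721 in control replicates 1, 2 and 3, and was called lower too.

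The genes that ran most opposite were Fam20c, Bbs5, Nup88, Arhgef19 and Zfp810, with r of -0.995 to -0.987. Fam20c, a secretory pathway kinase, read 221, 202 and 215 in isolated replicates 1, 2 and 3, and 142, 113 and 129 in control replicates 1, 2 and 3. Among the members, Pdp2 had the highest r with Pdk4 of the tested probe sets, at 0.752. With group means taken off it had 0.530, below the 0.563 of the brightest Pdk1 probe set. The 8 subunit probe sets had r of -0.735 to -0.363 with Pdk4. With group means taken off they ran from -0.789 to 0.207, with 4 of the 8 above 0.

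The arrays held the liver markers Alb, Ttr, Apoa1, Tat, Cps1 and Ass1, whose summed signal ran from 45811 to 50140 in isolated and from 45423 to 49809 in control livers. Markers were listed for 10 cell types, of which skeletal muscle and lymphocytes had 0 tested markers. Of the 24 tested markers limma called 0 in either direction, and 3, Tat, Fabp4 and Lrat, had an unadjusted p under 0.05. The log2 signals correlated at 0.969 to 0.974 within groups and at 0.955 to 0.968 between groups, taken over probe sets, which do not count as replicates. The ratio of 3′ to 5′ actin control signals ran from 1.99 to 2.35 in isolated and from 2.14 to 2.32 in control livers.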

How the data were processed

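Liver RNA of 3 isolated and 3 control samples was measured on 6 arrays. The deposited intensity values came from MAS5, per the submitters' processing notes; the version, scaling target and detection calls are not stated there. The scale was kept as deposited. After 64 control probe sets were set apart, 2 was added to each value before log2, and 22519 probe sets, those brighter than the median in mean log2 value (the upper 50%), were tested. limma 3.58.1 in R 4.3.3 fitted a model with 2 groups, with eBayes and an intensity trend. P-values were two-sided and adjusted by Benjamini-Hochberg across these 22519, and an adjusted p under 0.05 made a call. The procedure was also run on simulated data with independent normal errors. Those data held no brightness differences between whole arrays, so the run does not cover such differences here.

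Symbols came from the platform annotation, with 34945 probe sets of 1 symbol, 932 of several and 9160 of none. A listed gene was represented by its brightest tested single-symbol probe set. Named were all 10 members, called genes of each list, the 2 brightest others per list, and the 5 genes most like and most unlike Pdk4. The members, lists and alternatives were chosen with earlier results of these data known. Promoters for 9 of the 10 members were matched by symbol to RefSeq. The number of arrays, 3 per group, limits the precision. Plots were made in matplotlib 3.10.9.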

Additional observations from a re-analysis of the deposited data

How the results depend on the processing

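Of 238 log2 differences of the 14 tested member probe sets under 17 alternatives, 220 kept their sign and 18 changed it, all for Pdk1, Pdk2 and Pdha1, whose differences lie near 0. Pdk4 stayed below 0 throughout, from -4.52 (without control replicate 1) to -3.45 (without control replicate 2) with 1 array left out, and at -3.31 with a pseudocount of 16. The count of members called lower, which is Pdk4 and supports nothing since its signals were known when the genes were chosen, was 0 with the robust trend and 1 with each array left out. Over all probe sets, 367 were called (174 higher, 193 lower), against 182 (81 and 101) without a filter, 31 (15 and 16) without the intensity trend and 588 at a threshold of 0.1 (303 higher). With 1 array left out, the calls numbered 226 to 392, with 97 to 187 higher and 82 to 243 lower, the fewest in all and lower without control replicate 3 and the fewest higher without isolated replicate 3. Higher calls numbered 115 without control replicate 2. Without isolated replicates 2 and 3 together, chosen after seeing the data and resting on 1 isolated array whose spread is taken from the controls, 88 were higher, Pck1 was 1 call lower among pyruvate genes, and 0 acetyl-CoA genes were higher. Without the intensity trend 0 acetyl-CoA genes were higher and 0 factors lower. With each probe set counted, 6 factor probe sets were lower, of Lpin1, Cebpb, Ppara and Nr0b2. With 1 array left out, lower factors numbered 2 to 4, lower pyruvate genes 0 to 1 and higher acetyl-CoA genes 1. With the replicate block, 513 probe sets were called, 265 of them higher, and 1 member, 3 factors and 1 acetyl-CoA gene were called as without it. The labels do not pair samples of equal number, and the deviations of such samples from group means correlated at 0.008, 0.044 and 0.005. Isolated replicates 1 and 2 correlated best with the control of their own number, and isolated replicate 3 with control replicate 1. With 3 arrays per group, values this small cannot decide whether samples of equal number were handled together. The causes were not tested.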
